A study of Bos taurus with 6 samples.

Results

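In all, 5 immediate early genes were followed across all 6 arrays of the series: FOS, FOSL1 and JUN, which encode subunits of the transcription factor AP-1, the zinc finger factor EGR1 and the phosphatase DUSP1. They were chosen with earlier results of these data known, and their probe sets were found by name in the array's annotation. They are 5 of the 9155 genes named there. They have 11 probe sets in all, namely 5 for JUN, 2 each for FOS and EGR1 and 1 each for FOSL1 and DUSP1. RNA came from bovine mesenchymal stem cells (MSCs) of bone marrow embedded in agarose gel, with 1 array per condition. There were 3 conditions without transforming growth factor beta 3 (TGF-beta3), at days 3, 21 and 42 in defined medium, and 3 with it, namely day 21, day 42 and a day 42 construct that was compressed dynamically over its last 21 days. TGF-beta3 is used to drive MSCs towards cartilage cells, and the constructs compare that drive, time in culture and loading. The labels do not say how many donors there were. No condition was replicated, so no value has an error of its own, and precision is limited by how few arrays there are.

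Immediate early genes are transcribed within minutes of a stimulus from factors already present in the cell, and their mRNAs are short-lived. MAP kinases switched on by growth factors, stress or mechanical strain activate the factors that bind their promoters. AP-1 is a dimer of a FOS-type and a JUN-type protein, or of JUN-type proteins, and acts on genes of proteases and matrix in connective tissue. EGR1 is likewise induced through the ERK pathway. DUSP1, also called MKP-1, removes phosphate from MAP kinases and so closes a feedback loop, and its gene also responds to glucocorticoids.

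Values are the linear MAS5 signal of a probe set. A signal under 15.1, the 40th percentile of all values, was taken as the floor, and a difference with 1 side under the floor is a bound. Higher and lower mean a difference of at least 2-fold between 2 arrays, with no test. Rose and fell are kept for the limma test of TGF-beta3 over days 21 and 42 (4 arrays, day as covariate, p-values adjusted by Benjamini-Hochberg over 14839 probe sets and called under 0.05). For a gene with several probe sets the brightest is given first. Brightness of different probe sets is not compared. In bulk RNA, fewer cells of a type and less RNA per cell cannot be told apart.

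Across the arrays, median signal lay between 22.3 and 34.9. The hybridisation spikes, foreign transcripts added in fixed amounts, had median signals between 2617 and 3727 on 4 arrays but of 7304 (unloaded) and 5822 (loaded) at day 42 with TGF-beta3. Of 8 MSC markers, 5 (CD44, ENG, NT5E, ALCAM and ITGB1) were above the floor on all 6 arrays and LEPR on none. The summed signal of 7 cartilage markers was 8201 to 10571 without TGF-beta3 and 35147 to 60862 with it. That of 8 macrophage and blood cell markers was 232 to 585 without TGF-beta3 and 55.9 to 119 with it, with CD14 above the floor on all 6 arrays and ITGAM under it on all 6. That of 5 adipocyte markers was 5057 to 15415 without and 461 to 921 with TGF-beta3. Of 5 endothelial markers, VWF, CDH5 and KDR were under the floor on every array, and 1 of the 5 was above it on each array. Of 65 ribosomal protein genes tested 5 rose with TGF-beta3 and 0 fell, where 7.11% of all genes rose and 7.7% fell. Their median log2 difference was 0.85 against 0.13 for all genes, and 0 rose without the day term. At day 42 alone 53 of 65 were higher (25.5% of all genes were) and at day 21 alone 2 (14.3%). The part of these shifts in the values below was not tested.

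**Figure D1:**
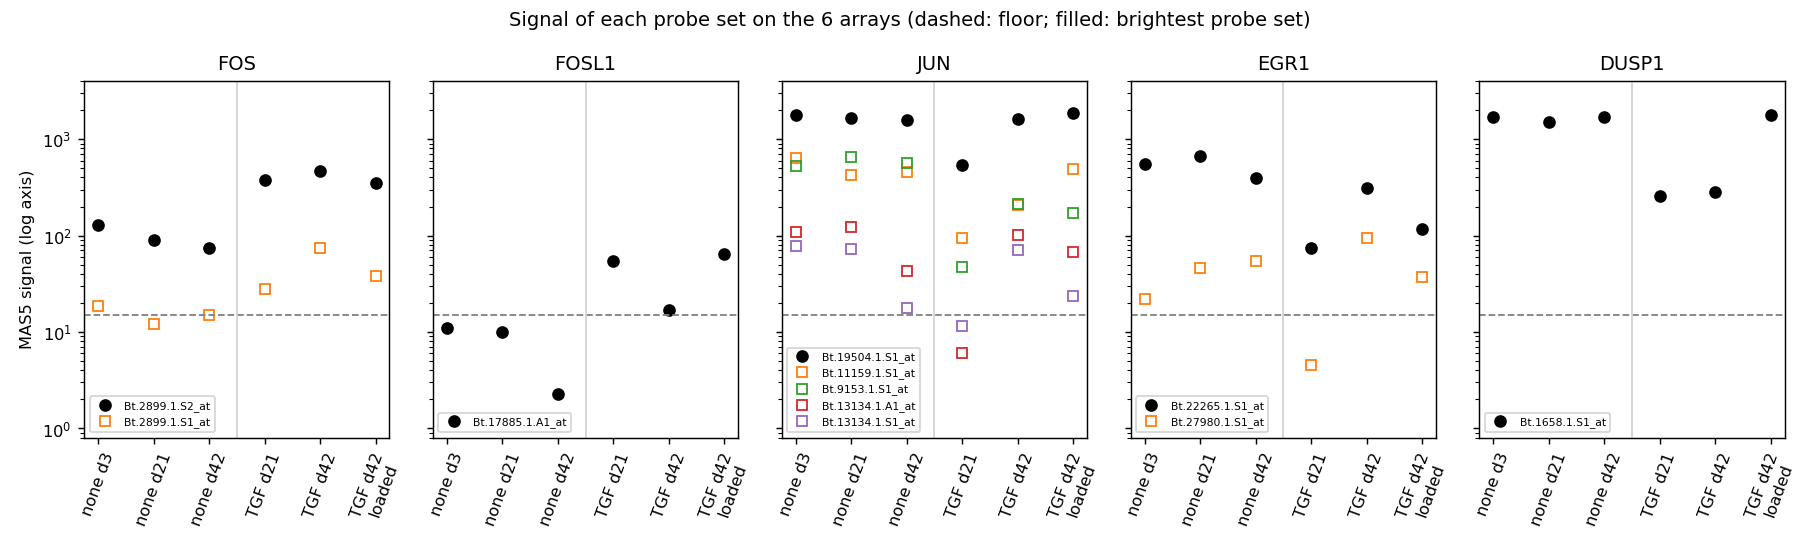
MAS5 signal (log axis) of the 11 probe sets of FOS, FOSL1, JUN, EGR1 and DUSP1 on the 6 arrays, 1 point per array, with filled circles for the brightest probe set of a gene, open squares for the others and a dashed line at the floor of 15.1. FOS is above its TGF-beta3-free levels on all 3 arrays with TGF-beta3, and DUSP1 is low on the 2 unloaded arrays with it and back at 1789 on the loaded one.

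The 5 genes did not move as a block. With TGF-beta3, FOS rose while DUSP1 and EGR1 fell, and FOSL1 and the brightest JUN probe set did not pass the test. That is 1 of 5 genes up and 2 of 5 down, where 7.11% of the 6835 genes tested rose and 7.7% fell. At day 21 alone 2 of the 5 were higher (14.3% of all genes were) and 3 lower (14%). At day 42 alone only FOS was higher (25.5%) and only DUSP1 lower (15.7%). Under loading 2 were higher (8.41%) and 1 lower (7.41%). The members were picked with earlier results known, so these shares describe them and no more.

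By probe set, 2 of the 11 were higher and 8 lower with TGF-beta3 at day 21 (13.3% and 15.7% of all probe sets), and 4 higher and 3 lower at day 42 (24.5% and 16.2%). Under loading 3 were higher and 3 lower (10.2% and 8.2%). In the TGF-beta3 test 1 of the 11 rose and 4 fell (5.84% and 7.33% of all probe sets). Both FOS probe sets and that of FOSL1 lay higher on all 3 arrays with TGF-beta3 than on any without (18.7% of all probe sets), and 1 EGR1 and 1 JUN probe set lower (13.7%).

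FOS encodes the founding FOS-type AP-1 subunit. Without TGF-beta3 its signal was 129.6 at day 3, 90.5 at day 21 and 73.5 at day 42. With TGF-beta3 it was 376 at day 21, 469.5 at day 42 and 352 on the loaded array. The lowest array with TGF-beta3 was thus above the highest without it. At day 21 TGF-beta3 came with 4.15-fold more FOS signal, and at day 42 with 6.39-fold more. Over both days FOS rose, with a mean log2 difference of 2.37 ± 0.47 (SE; adjusted p = 2.05e-04 by limma). Its second, dimmer probe set gave 18.5, 12.2 and 15.0 without TGF-beta3 and 27.8, 75.0 and 38.5 with it. Those groups did not overlap either, and limma gave it an adjusted p of 0.0771, short of the threshold. At days 21 and 42 without TGF-beta3 this probe set was under the floor. It was kept for testing only through its arrays with TGF-beta3, so its fit cannot decide whether it rose. Scaling the arrays to the spikes lowered the brighter probe set's mean log2 difference to 1.56 and ended the call (adjusted p = 0.289 by limma), and the day 42 pair differed by log2 1.39 in spike signal.

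FOSL1, or FRA-1, is a FOS-type subunit that usually follows FOS in time and lacks its strong activation domain. It was under the floor on every array without TGF-beta3, at 10.97, 9.97 and 2.29. With TGF-beta3 it gave 54.6 at day 21, 17.0 at day 42 and 64.0 under loading. Day 21 and the loaded array were clearly above the floor, and the unloaded day 42 array lay just over it. At day 21 the FOSL1 difference was at least 3.60-fold, and at day 42 the bound was only 1.12-fold. Over both days the mean log2 difference was 1.01 ± 0.56 (SE), which did not pass (adjusted p = 0.25 by limma). This result hung on the unloaded day 42 array: when the loaded one was used instead, the mean was 1.97 and FOSL1 passed (adjusted p = 0.0121 by limma). That pass is not a call on TGF-beta3, since the fit mixes in loading, under which FOSL1 was 3.78-fold higher. In both fits FOSL1 was set to the floor on the arrays without TGF-beta3, which left that side no spread of its own. It was kept for testing only through its arrays with TGF-beta3, so neither fit can decide whether FOSL1 rose.

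JUN encodes the main JUN-type subunit, and its probe sets had the same direction at day 21 but not at day 42. On the brightest the signal was 1757, 1655 and 1573 at days 3, 21 and 42 without TGF-beta3, and 541, 1601 and 1868 at day 21, day 42 and under loading with it. The day 21 array with TGF-beta3 stood apart and the other 5 lay within a narrow band. At that day all 5 probe sets were lower with TGF-beta3, by log2 -1.61 on the brightest to -3.78. At day 42 the brightest differed by log2 0.03, a pair of others were lower (-1.15 and -1.42) and another pair higher (1.27 and 2.0).

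The JUN probe sets are therefore given one by one, lettered A to E from the brightest to the dimmest by mean log2 signal. Set C gave 529, 653 and 568 without TGF-beta3 and 47.6, 213 and 169 with it, with no overlap, and it fell (mean log2 -2.60 ± 0.45 SE, adjusted p = 2.35e-05 by limma). Set B gave 636, 425 and 461 without and 93.7, 207 and 496 with TGF-beta3, and it also fell over the 4 unloaded arrays (mean log2 -1.67 ± 0.43 SE, adjusted p = 0.00442 by limma). Its loaded array lay inside the range without TGF-beta3. The brightest, set A, did not pass (mean log2 -0.79 ± 0.36 SE, adjusted p = 0.138 by limma). Nor did sets D and E, whose day 42 arrays without TGF-beta3 were low, at 42.6 and 17.6 against 124 and 73.1 at day 21. Between these 2 arrays the ratio of 3′ to 5′ probe set signal, a sign of RNA quality, went from 1.72 to 2.27 for GAPDH, 5.11 to 6.34 for cyclophilin and 5.14 to 9.10 for eIF4E, and its part in these values and in that of DUSP7 on the same array was not tested. A statement on JUN with TGF-beta3 at day 42 therefore depends on the probe set, and that at day 21 does not change direction between them.

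EGR1, a zinc finger factor that binds GC-rich sites, had its lowest signals with TGF-beta3 as well. The brighter probe set gave 557, 667 and 398 at days 3, 21 and 42 without TGF-beta3, and 74.6, 309 and 118 at day 21, day 42 and under loading with it. All 3 arrays with TGF-beta3 were below all 3 without. EGR1 was 8.94-fold lower with TGF-beta3 at day 21, rank 110 from the lowest of 6938 genes. At day 42 its signal was 1.29-fold below that without TGF-beta3, and by log2 -1.69 after spike scaling, which is past 2-fold. The mean log2 difference was -1.76 ± 0.45 (SE; adjusted p = 0.00434 by limma).

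The call on EGR1 was made on the brighter probe set. The dimmer one gave 22.2, 45.7 and 54.6 without and 4.55, 94.5 and 36.8 with TGF-beta3, so that its groups overlapped and it was at least 3.02-fold lower at day 21 but 1.73-fold above the array without it at day 42, a direction that spike scaling turned (log2 -0.53). It did not pass (adjusted p = 0.782 by limma). The call on the brighter probe set was lost without the day term (adjusted p = 0.209 by limma), without the variance trend (0.153) and with the loaded array added (0.0525). When the TGF-beta3 array of day 21 was left out (no term for day), the mean log2 difference was -0.74 (adjusted p = 0.108).

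DUSP1 was measured by a single probe set. Its signal was 1691 at day 3, 1493 at day 21 and 1707 at day 42 without TGF-beta3. With TGF-beta3 it was 259.7 at day 21 and 283 at day 42, but 1789 on the loaded day 42 array. The other 4 arrays lay between 1493 and 1789 and the unloaded ones with TGF-beta3 lay far below them. DUSP1 was 5.75-fold lower with TGF-beta3 at day 21 and 6.03-fold at day 42, and it fell (mean log2 difference -2.56 ± 0.34 SE, adjusted p = 1.24e-07 by limma). The log2 difference was -2.52 at day 21 and -2.59 at day 42. With the loaded array added as a further array with TGF-beta3, the mean was -1.80 and the call was lost (adjusted p = 0.116 by limma).

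**Figure D2:**
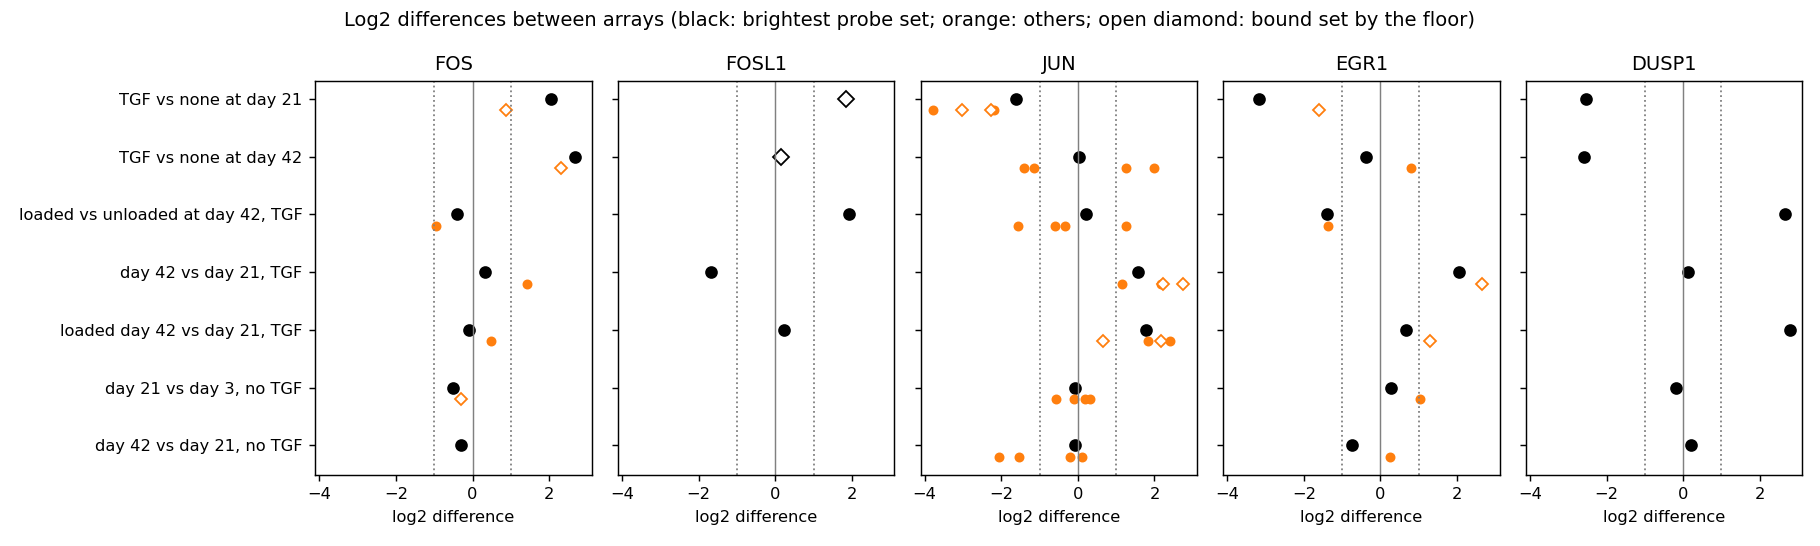
Log2 differences of each probe set in 7 comparisons of 2 arrays, with black for the brightest probe set of a gene, orange for the others, open diamonds for bounds set by the floor and dotted lines at 2-fold. DUSP1 lies at -2.52 and -2.59 with TGF-beta3 and at 2.66 under loading, while the 5 JUN probe sets spread from -1.42 to 2.0 with TGF-beta3 at day 42.

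Dynamic compression was compared with free culture at day 42, both with TGF-beta3. DUSP1 was 6.33-fold higher on the loaded array, rank 21 from the highest of 7703 genes compared, and 50 of 17449 probe sets had a higher difference. FOSL1 was 3.78-fold higher, from 17.0 to 64.0, at rank 104. EGR1 was 2.61-fold lower on its brighter and 2.57-fold lower on its dimmer probe set. FOS was 1.34-fold lower and JUN 1.17-fold higher on their brightest probe sets, both under 2-fold. The other JUN probe sets ran from log2 -1.57 to 1.26. Across the alternative scalings and floors the DUSP1 difference stayed between log2 2.52 and 2.99 and that of EGR1 between -1.48 and -1.06. That of FOSL1 shrank to 0.21 under a 60th percentile floor, since its unloaded signal then lies under the floor.

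The spikes differed by log2 -0.39 in median between the loaded and the unloaded array. The macrophage markers summed to 119 on the unloaded and 83.3 on the loaded array and the adipocyte markers to 921 and 719. The MSC markers summed to 3898 and 4575 and the endothelial markers to 33.1 and 67.3, of which TEK made 0.979 and 48.4. The ratio of 3′ to 5′ signal was 4.95 unloaded and 7.52 loaded for cyclophilin and 7.41 and 8.05 for eIF4E. For GAPDH it went the other way, from 2.15 to 1.80. The part of these shifts in the loading values was not tested. With 1 loaded array the difference has no replicate check, and a difference between constructs cannot be told apart from one due to loading.

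**Figure D3:**
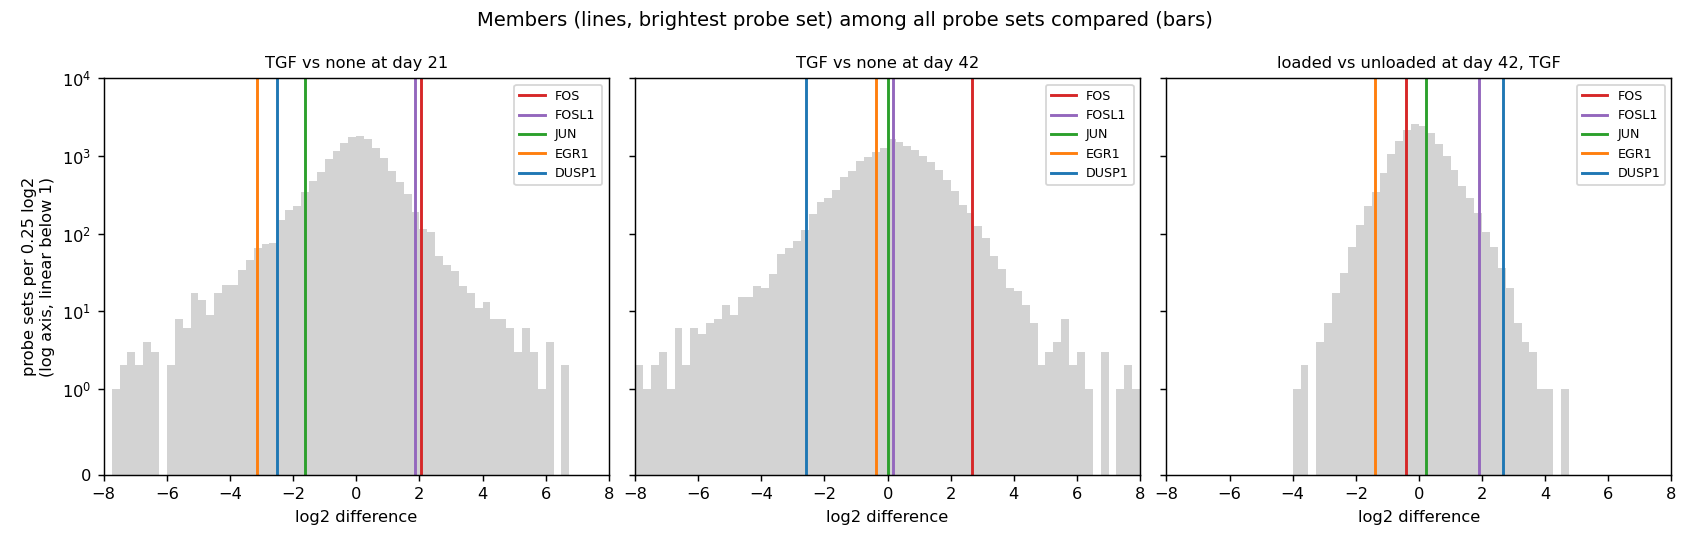
Counts of all probe sets by log2 difference (bars of 0.25 log2, log axis that is linear below 1) for TGF-beta3 at days 21 and 42 and for loading, with a vertical line at the brightest probe set of each of the 5 genes. EGR1 and DUSP1 lie in the lower tail at day 21, FOS in the upper tail on both days, and DUSP1 at the upper edge under loading.

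The day 21 TGF-beta3 pair and the loading pair share no array, so they can be set side by side. Of 14346 probe sets compared in both, 2115 were lower with TGF-beta3 at day 21 and 1580 were higher under loading. DUSP1 is 1 of the 305 in both lists, which are 14.4% of the first and 19.3% of the second. Of all 14346, 11.01% were higher under loading and 14.7% lower at day 21. EGR1 is among the 196 lower in both, 9.27% of the day 21 list and 18.8% of the loading list, where 7.28% of all were lower under loading and 14.7% lower at day 21. Of the 1971 higher at day 21, 259 were higher and 147 lower under loading.

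Without TGF-beta3 the genes changed little with time. From day 3 to day 21 and from day 21 to day 42 none of the 4 genes above the floor passed 2-fold on the brightest probe set, against 7.03% of genes higher and 4.72% lower in the first interval and 3.83% and 5.49% in the second. DUSP1 differed by log2 -0.18 and 0.19, JUN by -0.09 and -0.07, FOS by -0.52 and -0.30 and EGR1 by 0.26 and -0.74. By probe set, 1 of 10 was higher and 0 lower in the first interval (7.18% and 5.2%) and 0 of 9 higher and 2 lower in the second (3.29% and 10.1%). The dimmer EGR1 one was 2.06-fold higher at day 21 than at day 3, and JUN probe sets D and E were 2.92-fold and 4.15-fold lower at day 42 than at day 21.

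With TGF-beta3 the genes differed more between days 21 and 42. By probe set 8 of 11 were higher and 1 lower (18.1% and 14.1%). EGR1 was 4.14-fold higher at day 42 and JUN 2.96-fold (19.7% of genes were higher), and all 5 JUN and both EGR1 probe sets were past 2-fold. FOSL1 was 3.22-fold lower (11.1% were lower). FOS and DUSP1 differed by 1.25-fold and 1.09-fold. These 2 arrays differed by log2 1.24 in spike signal, and scaled to the spikes JUN was higher by log2 0.38 and EGR1 by 0.86, both under 2-fold, while DUSP1 differed by -1.06. Against day 21, the loaded day 42 array had JUN 3.46-fold and DUSP1 6.89-fold higher (15.4% of genes were higher) and none of the 5 lower (7.36% were), and 6 of the 11 probe sets were higher and 0 lower (15.1% and 9.97%). This comparison shares its day 21 array with the unloaded one, and the spikes were 0.83 higher on the loaded array. Scaled to the spikes, JUN was higher by log2 0.93 there, under 2-fold.

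The other AP-1 and related bZIP genes, from a list of 12 names with 9 on the array, had 8 members tested. With TGF-beta3 JUNB rose and none fell (7.11% and 7.7% of all genes), and their median log2 difference was 0.998 against 0.13 for all genes tested. JUNB, a JUN-type subunit with weaker activation than JUN, gave 272, 218 and 205 without TGF-beta3 and 728, 773 and 1263 with it. Its groups did not overlap, and its mean log2 difference was 1.83 ± 0.37 (SE; adjusted p = 2.80e-04 by limma). The call on JUNB, as the list's count, was lost without the variance trend, under median centring and under spike scaling, each of which left 0 of the list past the test, and also without either array lacking TGF-beta3.

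JUND, the most steadily expressed JUN-type subunit, gave 855, 852 and 864 without TGF-beta3 and 1169, 2149 and 3537 with it, a mean log2 difference of 0.89 that did not pass. FOSL2, a FOS-type subunit, gave 62.3, 137 and 53.2 without and 95.1, 312 and 412 with TGF-beta3. At day 42 alone 6 of the 9 were higher, where 25.5% of all genes were, and at day 21 only JUNB of 8 was (14.3%). On the day 42 array without TGF-beta3 ATF2 was low, at 40.5 against 114 at day 21. So were MAFF, at 45.3 against 89.8, and FOSL2, at 53.2 against 137. BATF was under the floor there, at 11.4, so its difference is a bound. JUNB and JUND were near their day 21 signals on that array. The day 42 pair also differed by log2 1.39 in spike signal. The part of these in this count was not tested. Under loading 1 of the 9 was higher and 1 lower, where 8.41% and 7.41% of all genes were. These were ATF3, a stress-induced repressor (log2 1.11), and BATF (-1.29), and the other 7 were under 2-fold.

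**Figure D4:**
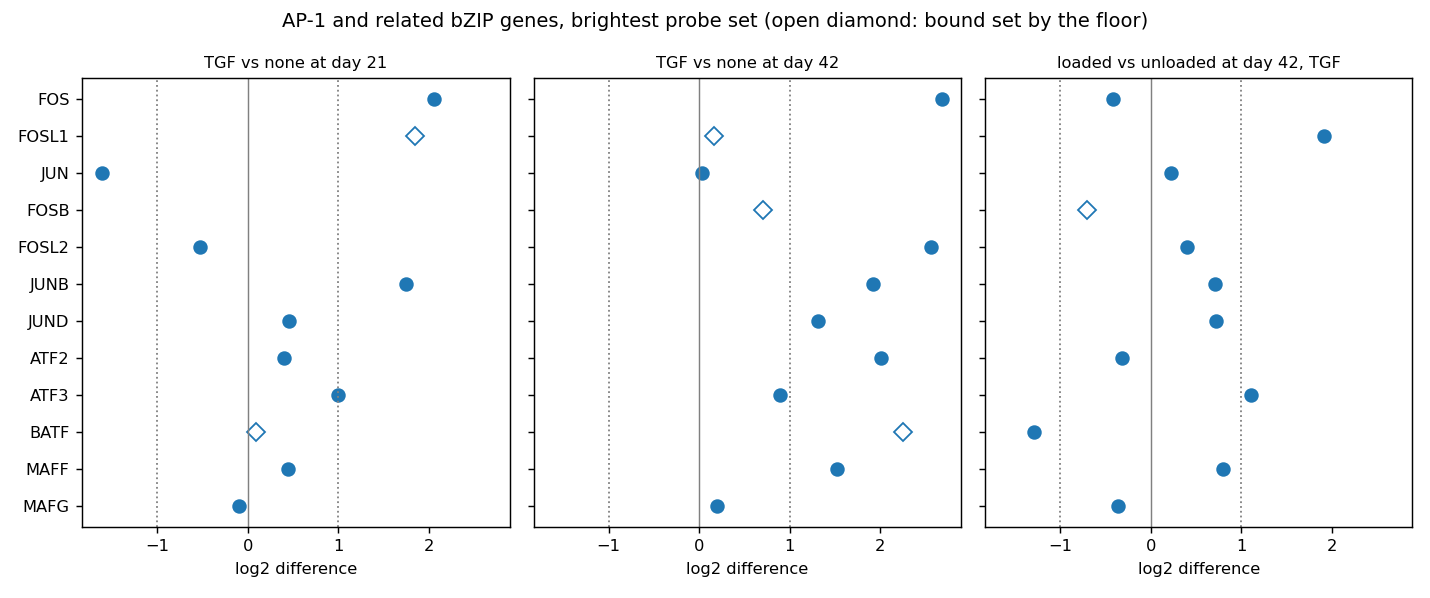
Log2 differences of the AP-1 and related bZIP genes, brightest probe set of each, for TGF-beta3 at days 21 and 42 and for loading, with open diamonds for bounds set by the floor and dotted lines at 2-fold. At day 21 JUN lies at -1.61 and FOS at 2.05, and at day 42 6 of the 9 genes listed besides FOS, FOSL1 and JUN lie above 2-fold. The day 42 pair differed by log2 1.39 in spike signal.

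Among other immediate early nuclear and mRNA decay factors, 16 of 24 were on the array and 15 were tested. IER3 and ID3 rose and ZFP36L1 and ZFP36L2 fell, 2 of 15 each way against 7.11% and 7.7% of all genes, and the list's median log2 difference was 0.11 against 0.13 for all genes. IER3, a stress-inducible survival protein, gave 202, 66.8 and 59.7 without TGF-beta3 and 281, 1579 and 3229 with it, with a mean log2 difference of 3.40 ± 0.49 (SE; adjusted p = 4.83e-07 by limma). It was higher by log2 1.03 under loading. ZFP36L1, which binds AU-rich elements and shortens the life of immediate early mRNAs, gave 3014, 2359 and 2389 without and 564, 944 and 757 with TGF-beta3. A second ZFP36L1 probe set fell as well and another, dim one did not pass (adjusted p = 0.726 by limma). ZFP36, of the same family, was higher by log2 2.39 under loading, from 43.9 to 230, as was ID2, an inhibitor of helix-loop-helix factors, by 1.31 on its brightest probe set. The other ID2 probe set gave 42.0 unloaded and 28.7 loaded. No member of this list passed without the day term, and neither fall was called without the variance trend.

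Of the phosphatases and feedback inhibitors of MAP kinases, 8 of 18 were on the array. DUSP7, a phosphatase of ERK, rose, with a difference of log2 3.52 at day 42 and 0.30 at day 21, and its day 42 array without TGF-beta3 was low, at 30.0 against 106 at day 21. SPRY1, an inhibitor of receptor signalling to ERK, fell, with 205 against 63.3 at day 21 and 204 against 25.03 at day 42. Neither passed without the day term, and neither when an array lacking TGF-beta3 was left out. DUSP7 also did not pass under median centring, spike scaling, without the variance trend or with the loaded array added. The list's median was log2 -0.34 against 0.13 for all genes. Under loading 2 of 8 were higher and 0 lower (8.41% and 7.41% of all genes). ERRFI1, an inhibitor of the EGF receptor, was higher by log2 1.49 on its brightest probe set, from 718 to 2015. Its others gave 582 unloaded and 1326 loaded, 76.4 and 137, and 124 and 125, the last 2 pairs under 2-fold apart. DUSP14 was higher by a bound of log2 1.64 on its brightest probe set, from under the floor to 47.3. The second DUSP14 probe set gave 45.5 unloaded and 56.2 loaded, under 2-fold apart.

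The MAP kinase cascade itself had 19 of 31 listed genes on the array and 16 tested, of which none rose and NRAS and MAPK14 fell, where 7.11% of all genes rose and 7.7% fell. NRAS, a GTPase upstream of RAF, had a mean log2 difference of -1.18 ± 0.36 (SE) and MAPK14, the p38 alpha kinase, one of -1.53 ± 0.46 (adjusted p = 0.0189 and 0.0168 by limma). Neither call held when the day term or the variance trend was dropped, nor under median centring or under spike scaling, and the other MAPK14 probe sets did not pass. The list's median log2 difference was 0.03 against 0.13 for all genes. Under loading 2 of 17 were higher and 2 lower (8.41% and 7.41% of all genes), among them MAPK8, or JNK1 (log2 1.45), and HRAS (-1.07).

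Of 26 listed names of secreted and surface genes known as AP-1 or EGR1 targets, 20 were on the array and 15 were tested. PLAU, PLAUR, CCL2 and VEGFA rose and CD44 fell, and PTGS2 also passed upward. With PTGS2 that is 5 and 1 of 15 against 7.11% and 7.7% of all genes. PTGS2 was under the floor on both tested arrays without TGF-beta3, at 8.31 and 4.33. It was kept for testing only through its arrays with TGF-beta3, so its fit cannot decide whether it rose. The list's median log2 difference was 1.09 against 0.13 for all genes. Under loading 5 of 17 were higher and none lower, where 8.41% of all genes were higher. These were IL6, a cytokine (log2 2.53), MMP3, a matrix protease (1.92), PLAU, the urokinase (1.69), MMP13 (a bound of 1.58) and TNC, a matrix protein (1.20). IL6 gave 123 at day 3 and under the floor at days 21 and 42 without TGF-beta3, and 83.6 at day 21, 15.9 at day 42 and 91.4 under loading with it. A second MMP13 probe set gave 7.06 unloaded and 16.0 loaded, the latter just over the floor. The other TNC probe set went the other way, with 20.5 unloaded and 12.5 loaded. The other MMP3 probe sets lay near the floor, with 15.6 unloaded and 15.5 loaded on one and 10.8 and 17.4 on another. The CD44 call was lost under median centring, under spike scaling and when the day term or variance trend was dropped. The count of genes that passed upward stayed at 5 under each of these. Of genes known to be induced by glucocorticoids, 3 of 6 were on the array. SGK1 rose and none fell, where 7.11% of all genes rose and 7.7% fell. The SGK1 call was lost under spike scaling and when the day term or variance trend was dropped. FKBP5 and ZBTB16 did not pass. None of the 3 passed 2-fold under loading, where 8.41% of all genes were higher and 7.41% lower. Under spike scaling 0 of the 3 rose and 1 fell, where 225 of all 15566 probe sets tested rose and 1302 fell. Of the other SGK1 probe sets one also rose and one did not pass (adjusted p = 8.28e-07 and 0.187 by limma). At day 21 with TGF-beta3 FKBP5 was 2.16-fold and ZBTB16 5.78-fold lower, 2 of 3 against 14% of all genes, and SGK1 2.70-fold higher.

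The genes with the most similar profiles were sought among 4775 named genes by Pearson's r of floored log2 signal over the 6 arrays. For DUSP1 they were ATG14 (r = 0.985), OSGEPL1 (0.965) and TLR3 (0.963). For FOS they were SSR1 (0.998), TCEA3 (0.995) and RCN3 (0.993). AREL1, PTPRH and SMARCA4 came first for FOSL1 (0.995, 0.990 and 0.988), TENT5B, FN3K and PINK1 for JUN (0.968, 0.961 and 0.957) and KCNK17, HBP1 and SUN2 for EGR1 (0.984, 0.979 and 0.975). Among the 5 genes themselves, r ran from -0.94 between FOSL1 and EGR1 to 0.69 between JUN and DUSP1. FOSL1 was under the floor on every array without TGF-beta3, so each r that involves it rests partly on values set to the floor. These are descriptions over 6 arrays that share treatment and scaling.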

How the data were processed

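Signal intensity on a linear scale, 1 value per probe set and array, is what the authors deposited, and the submitters' processing notes name MAS5. Per the labels' protocols, RNA was amplified linearly by ribo-SPIA before biotin labelling. The trimmed mean of every array was 150.0 to 150.1, so the authors' scaling was kept. Of 24128 probe sets, 112 controls were left out, and 13292 of the other 24016 had 1 gene symbol. All 11 probe sets of the 5 genes kept their symbol through Entrez identifiers. Signals under the floor (40th percentile, 15.1) were set to it, then log2 was taken. Pairs of arrays were compared by size (2-fold). TGF-beta3 over days 21 and 42 was tested with limma 3.58.1 in R 4.3.3 (day term, variance trend, kept if 2 or more of the 4 arrays exceeded the floor). This fit had 1 residual degree of freedom and a prior worth 49.8, so its p-values rest on the spread pooled over probe sets. The fit was tested on simulated data with 200 of 14839 probe sets changed. It recovered 99% of those changed by log2 2 and 100% of those by log2 4, with 5 false calls. The simulation gave every probe set the same spread and had no floor, so it does not check the p-values of these arrays. From 7 gene lists, the rule named up to 2 genes at each end past 2-fold in a comparison with both arrays above the floor, and those past the test; not all are printed, and DUSP14 was named after its values were seen. Similar profiles needed at least 4 arrays above the floor and a log2 range of at least 1, and placeholder symbols were left out, a step settled after the values were seen. Members and lists were chosen with earlier results of these data known. Alternatives were other floors, scalings, thresholds, samples and variance settings. No sequence or genome position was used here. Tables were handled in Python 3.11.15 (pandas 2.3.3).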

Additional observations from a re-analysis of the deposited data

Results flagged for a closer look

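On 2 JUN probe sets the difference between arrays with and without TGF-beta3 had opposite directions on days 21 and 42. For probe set D the log2 difference was -3.04 at day 21, a bound, and 1.27 at day 42, and for probe set E it was -2.27, also a bound, and 2.0. The difference at day 42 minus that at day 21 was 4.30 for the first and 4.27 for the second. With 1 array per side on each day, this was not tested.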

How the results depend on the processing

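With spike scaling, the day 42 TGF-beta3 difference was log2 -1.29 for JUN, -0.054 for its probe set D and -1.69 for EGR1. With that scaling, day 42 against day 21 with TGF-beta3 gave -0.038 for JUN probe set B, 0.38 for JUN, 0.86 for EGR1 and -1.06 for DUSP1, and the loaded array against day 21 gave 0.93 for JUN. Other probe sets gave, for TGF-beta3, 0.88 for FOS at day 21 and -1.15, -1.42, 1.27 and 2.0 for JUN at day 42. Under loading they gave 1.26 and -1.57 for JUN. For day 42 against day 21 with TGF-beta3, FOS was 1.43, and for the loaded array against day 21 JUN was 0.65 and EGR1 1.28. Without TGF-beta3, EGR1 was 1.04 from day 3 to 21, and JUN -1.54 and -2.05 from day 21 to 42. The floor at the 25th percentile gave 1.66 for FOSL1 at day 42, and that at the 60th gave 0.21 under loading.

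Counts of probe sets past the threshold moved with the threshold and floor. At 1.5-fold and 3-fold they were 7869 and 2033 for TGF-beta3 at day 21, 10413 and 3495 at day 42, 7136 and 1007 for loading, 9273 and 2153 for day 42 against 21 with TGF-beta3, 8121 and 1444 for the loaded array against day 21, 4849 and 555 for day 21 against 3, and 4897 and 533 for day 42 against 21 without TGF-beta3. In that order, the 60th percentile floor gave 2508, 3493, 1043, 2366, 1634, 817 and 658, and from loading on the 25th gave 5992, 8442, 6947, 3220 and 3474. Spike scaling gave 8468 for day 42 against 21 with TGF-beta3, 6578 for the loaded array against day 21 and 3542 for day 21 against 3.

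The limma count was 1030 without the variance trend, 570 without the day term, and, on leaving out an array, 370 without the day 21 and 340 without the day 42 array lacking TGF-beta3 and 3773 without the day 21 array with it. Without the filter it was 0 of 24016, with 2113 at an unadjusted p under 0.05. The limma values were 1.56 (spikes), 2.37 (no filter, adjusted p = 0.518) and 1.59 (other probe set) for FOS, 1.97 (loaded in place of unloaded) for FOSL1, and -0.87 (quantile), -1.67 and -2.60 (other probe sets) for JUN, which was -1.58 without the day 42 array with TGF-beta3. EGR1 was -1.76 without the trend, day term or filter, -1.96 with the loaded array added, -0.40 by the other probe set and from -2.14 to -0.74 on leaving out an array (-1.39 without the day 21 array lacking TGF-beta3). DUSP1 was -2.56 without the filter (adjusted p = 0.518) and -1.80 with the loaded array added. Median centring gave 488 rises and 1007 falls and spike scaling 225 and 1302, against 866 and 1088. The causes were not tested. The test paired the arrays by day, and the fit without the day term is its unpaired form.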
